A study of Rattus norvegicus with 112 samples.

Results

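The comparison described here is between rat cortical neuron cultures that received nicotine before NMDA and cultures that received NMDA alone. It rests on 6 of the 112 arrays of the series, chosen by their labels. For 3 arrays 10 uM nicotine was present for 18 h, 1 mM NMDA was then added and RNA was harvested 1 h later (nicotine + NMDA). For the other 3, RNA was harvested after 1 h in 1 mM NMDA (NMDA). Each array of one group has a partner in the other that carries the same date in its label, and these dates are numbered 1, 2 and 3. The same dates also gave 3 untreated control arrays and 3 arrays of cultures in 10 uM nicotine for 18 h, so that the experiment crossed nicotine with NMDA over 12 arrays. All cultures were primary neurons of cerebral cortex with no transgene or mutation named in the labels. The labels name no vehicle for the 18 h before NMDA in the cultures without nicotine, and, though the 3 arrays of a group carry different dates, they do not state whether a date marks a separate preparation of neurons, so the p-values measure the spread between arrays, which may in part be technical.

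NMDA opens a class of glutamate receptor whose channel passes calcium as well as sodium. Calcium entering through it activates kinases that reach the nucleus within minutes and switch on immediate early genes such as Fos, Egr1 and Nr4a1, whose transcription needs no new protein. Prolonged opening of the same channel can injure or kill neurons. Nicotine opens nicotinic acetylcholine receptors, pentameric cation channels built from alpha and beta subunits, and long exposure is known to desensitize them and to raise the number of receptor proteins at the cell surface. The labels place these arrays under an experiment named for neuroprotection, and the comparison asks how far neurons kept in nicotine differ, 1 h into NMDA, from neurons that met NMDA without it.

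Each array gave a signal for 1263 probe sets after control probe sets were left out, and 884 whose mean over all 12 arrays lay above the 30th percentile were tested, 792 of them with 1 gene. Signals are the authors' deposited intensities, which had nearly the same trimmed mean on each of the 12 arrays. Changes are given as log2 of nicotine + NMDA over NMDA, fitted with the date as a block, with the standard error (SE) of the fit. The 3 nicotine + NMDA arrays had a ratio of 3' to 5' GAPDH signal of 1.47 each, and NMDA replicates 1 and 3 had 1.28 and 1.56. NMDA replicate 2 stood apart at 2.18, a ratio that is known to rise when RNA is degraded or copied short, and control replicate 2 stood further apart at 3.36. Of the neuron markers, 13 of 22 listed were on the array and all 13 were tested. Their summed signal ran from 229632 to 252934 on the NMDA arrays and from 226751 to 241846 on the nicotine + NMDA arrays, with the tau gene Mapt at percentile 99.8 and the growth cone gene Gap43 at percentile 98.9 of the mean signals. The 7 astrocyte markers on the array, of 13 listed, summed to 37630 to 40823 with NMDA and to 40848 to 43322 with nicotine + NMDA, so that the groups narrowly did not overlap. On the control arrays the sum ran from 39086 to 52016, across the ranges of both groups. Of the 7, S100b alone was lower with nicotine, with means of 7799 and 7152. The 6 oligodendrocyte markers, of 14 listed, overlapped, at 9883 to 14019.5 and 8963 to 16171, and the only microglia marker on the array, Itgam, was too dim to be tested. In such bulk RNA, fewer cells of a type and less RNA per cell cannot be told apart.

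Nicotine pretreatment gave no difference past the threshold 1 h into NMDA. By limma with Benjamini-Hochberg adjustment, 0 of 884 probe sets passed, which is 0% of those tested, and the smallest adjusted p was 0.999. At an unadjusted p under 0.05 there were 28, or 3.17%, of which 19 (2.15%) were higher and 9 (1.02%) lower with nicotine. The 3 nicotine + NMDA arrays lay above all 3 NMDA arrays at 30 probe sets (3.39%) and below all 3 at 22 (2.49%), 52 in all (5.88%). On all 3 dates the signal was higher with nicotine at 112 probe sets (12.7%) and lower at 108 (12.2%). Where a gene below had 1 direction on every date, it is to be read beside these shares. The fitted change is the mean of the differences within the 3 dates, so averaging alone narrows its spread. The SD of the differences over probe sets was 0.487, 0.618 and 0.506 on the log2 scale on dates 1, 2 and 3. On these dates 57, 89 and 61 probe sets differed by over 2-fold. The fitted change had a median of 0.0078 and an SD of 0.31, and 9 probe sets lay over 2-fold, 6 of them higher. Between pairs of dates, the differences correlated at -0.095, -0.0044 and 0.071 over the 884 probe sets, which are not independent replicates.

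**Figure D1:**
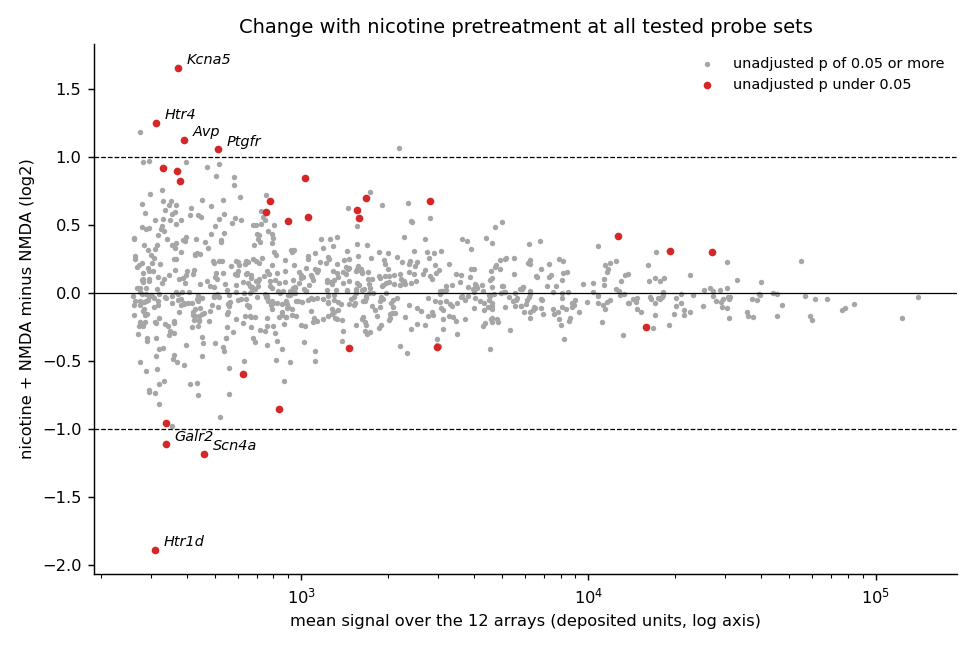
Fitted change with nicotine (log2, vertical axis) against mean signal over the 12 arrays (log axis) for the 884 tested probe sets, with the 28 at an unadjusted p under 0.05 in red and dashed lines at a 2-fold change. The spread narrows from left to right, 8 of the 9 probe sets past 2-fold are among the 294 dimmest, and none of the 884 passed after adjustment.

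How much of a difference these arrays leave possible depends on the signal. The 95% interval of the change lay wholly inside a 2-fold change in either direction at 621 probe sets (70.2%). With the probe sets divided by mean signal into bright, middle and dim parts of nearly equal size, this held for 281 of the 295 bright ones (95.3%), for 237 of the 295 middle ones (80.3%) and for 103 of the 294 dim ones (35.0%). The median interval reached 0.36 to either side among the bright and 0.89 among the dim. For Fos and Egr1 a 2-fold change with nicotine was outside the interval at every tested probe set. For 6 of the 11 tested nicotinic subunit genes it was not. A p that misses the threshold does not show that the groups were alike.

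The early response to NMDA was present in both groups at close levels. Against their own cultures without NMDA, 11 probe sets rose in the NMDA arrays (1.24% of 884), and 11 rose in the nicotine + NMDA arrays (1.24%), with 0 that fell. The same 11 passed in both. The pairs of groups had no array in common, but both changes came from the same fit, with a shared variance and date block. Each probe set therefore had the same SE in both, and passing in both is not independent evidence. Without the date block 8 and 9 of the 11 passed. The 11 stood for 5 genes, Fos, Junb, Egr1, Nr4a1 and Nr4a3, and 1 probe set without a gene name. Their signals in each group are given next, with the difference between the groups with NMDA after them.

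**Figure D2:**
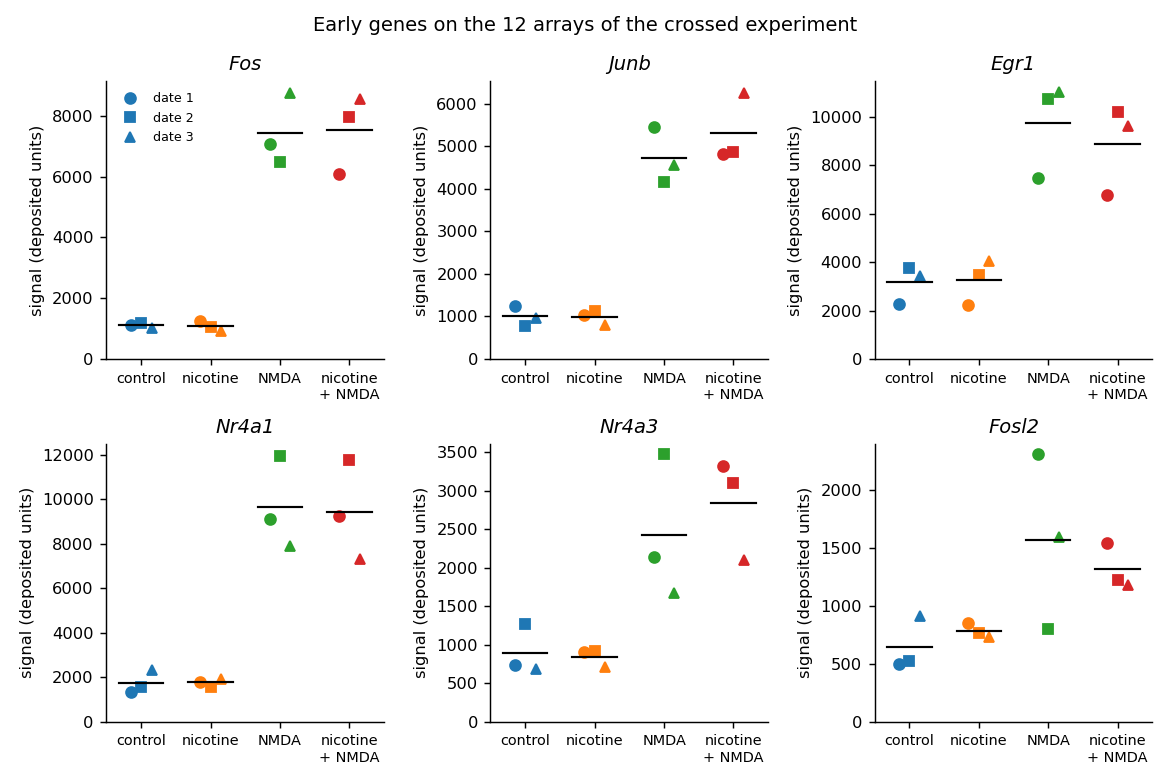
Signal (deposited units, axis from 0) of 6 early genes on each of the 12 arrays, with a symbol per date and a bar at the mean of 3 arrays. In the 5 genes that passed, every array with NMDA lies above every array without it, and the NMDA and nicotine + NMDA arrays overlap. Fosl2, which did not pass, read 802 on NMDA replicate 2, below control replicate 3 at 911.

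Fos encodes the partner of Jun proteins in the AP-1 transcription factor. Its probe set X03347cds_g_at read 1126, 1190.3 and 1029 on the control arrays of dates 1, 2 and 3 and 1247, 1059 and 929 with nicotine alone. With NMDA it read 7061, 6489.6 and 8757, and with nicotine + NMDA 6073, 7955 and 8551. The last pair of groups overlapped, with nicotine lower on dates 1 and 3 and higher on date 2, and differed by 0.014 (SE 0.19, 95% interval -0.41 to 0.44). NMDA raised this signal by 2.67 without nicotine and by 2.73 with it. The other 2 Fos probe sets differed between the groups with NMDA by 0.010 (SE 0.15) and -0.13 (SE 0.38).

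Junb, another AP-1 subunit, read 5446, 4155 and 4559.9 with NMDA and 4823, 4868 and 6255 with nicotine + NMDA, against 1250.4, 778 and 973 on the control arrays. It lay 0.17 higher with nicotine (SE 0.21, interval -0.29 to 0.62), with overlapping arrays and date 1 going the other way. Egr1, a zinc finger factor used as a marker of neuronal activity, read 7476, 10744 and 11036 with NMDA and 6765, 10204 and 9614 with both at M18416_at. It was lower with nicotine on all 3 dates with overlapping arrays, at -0.14 (SE 0.13, interval -0.42 to 0.15). The remaining Egr1 probe sets differed by -0.092, 0.054 and 0.30, and the last of these was the only one of the 4 that NMDA did not raise past the threshold.

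Nr4a1 and Nr4a3 encode orphan nuclear receptors that act as transcription factors without a known hormone. Nr4a1 at U17254_g_at read 9099, 11959 and 7908 with NMDA and 9224, 11740.1 and 7332 with nicotine + NMDA, each date giving nearly the same value in both groups. The change was -0.038 (SE 0.24, interval -0.58 to 0.50), and 0.019 (SE 0.19) at U17254_at. The Nr4a3 probe set X86003_at read 2136, 3469 and 1667 and 3319, 3099.9 and 2092, higher with nicotine on dates 1 and 3 and lower on date 2, for a change of 0.26 (SE 0.21, interval -0.20 to 0.72). NMDA raised it by 1.37 without and by 1.66 with nicotine, the former not past the threshold when the date block was left out (adjusted p = 0.0814 by limma). A second tested probe set, rc_AI176710_at, did not respond to NMDA past the threshold and differed by -0.054 between the groups with NMDA.

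Of the 5 genes, 3 had a promoter in the RefSeq table used here (rat assembly GRCr8). The one shown is that of Nr4a1, since its letters carry a repeated AP-1-like and CRE-like element, a kind of site that activity-regulated factors are known to bind. It lies on the plus strand at chr7:134259888-134260137, the 250 bases before the annotated start, with each TGCGTCA in capitals.
Nr4a1: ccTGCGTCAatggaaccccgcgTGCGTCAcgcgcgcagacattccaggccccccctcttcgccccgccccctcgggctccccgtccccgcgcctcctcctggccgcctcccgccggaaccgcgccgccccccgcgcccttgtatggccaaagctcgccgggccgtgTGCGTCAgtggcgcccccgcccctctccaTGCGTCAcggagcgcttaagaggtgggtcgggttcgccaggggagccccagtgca
The 4 copies begin 248, 228, 84 and 55 bases before the start. On either strand, as TGCGTCA or TGACGCA, the element was found in 1.66% of the 33469 windows of the same length in that table, and this was the 1 window with 4 or more copies. It was not found in the windows of Egr1 and Junb. The element was chosen after the sequence had been seen, and a match is no evidence of binding.

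Among the other immediate early and activity-regulated genes no member differed past the threshold either. Of 15 such genes on the array 14 were tested, 6 lay above 0 and 8 below, and 12 had intervals inside a 2-fold change; none had an unadjusted p under 0.05. Their median change was -0.037, beside 0.0078 over all 884 probe sets, of which 458 lay above 0 and 426 below. The counts above 0 in the lists that follow are to be read beside that share. Fosl2, a late member of the Fos family, read 2307, 802 and 1592 with NMDA and 1543, 1221 and 1182 with both, a change of -0.13 (SE 0.31) with overlapping arrays. Jun at X17163cds_s_at lay at -0.036 (SE 0.43) and Jund at -0.10 (SE 0.49), both with intervals near a 2-fold change in each direction. Crem, whose short form ICER represses cAMP-responsive genes, had the highest value, 0.50 (SE 0.55), and NMDA replicate 2, the array with the GAPDH ratio of 2.18, was its lowest at 209 against 1547 and 1023 on the others. Without that array the change of Crem was -0.078. The lowest value was that of Ptgs2, the inducible cyclooxygenase, at -0.24 (SE 0.28), and it was -0.074 without the same array.

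Bdnf, a neurotrophin released with activity, had the smallest p of the list, at S76799_at. There it read 959.9, 636 and 432 with NMDA and 1027, 809.9 and 845 with nicotine + NMDA. It was higher with nicotine on 3 of 3 dates with overlapping arrays, by 0.43 (SE 0.24, unadjusted p = 0.101), while its control arrays read 833, 952 and 846. The 5 other tested Bdnf probe sets lay at 0.24, 0.16, -0.25, 0.12 and 0.15, so that its probe sets did not all lie on one side of 0. Of the secreted or matrix-acting products, the granin-like Vgf lay at 0.035 (SE 0.14, interval -0.26 to 0.33), the AMPA receptor clustering pentraxin Nptx2 at -0.12 and 0.23 at its 2 probe sets, and the protease Plat at 0.055 (SE 0.29).

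The receptors through which nicotine acts were mostly dim on these arrays. Of 15 nicotinic subunit genes present 11 were tested, and the dim Chrnb3, Chrna5, Chrna6 and Chrna9 were not. With nicotine + NMDA, 4 lay above and 7 below their NMDA level, with a median of -0.051 beside 0.0078 over all probe sets, and 5 had intervals inside a 2-fold change. Chrna3, an alpha subunit best known from autonomic ganglia, was the one member with an unadjusted p under 0.05, beside 28 of 884 over all. It read 232, 258 and 125 with NMDA and 356, 367 and 470.5 with nicotine + NMDA, so the groups did not overlap. The difference was 0.83 (SE 0.36, unadjusted p = 0.0430, limma's adjusted p = 0.999). Its control arrays read 435, 372 and 751 and those with nicotine alone 482, 373 and 310.3. The nicotine + NMDA arrays thus lay within the range of arrays without NMDA and the NMDA arrays below it. NMDA against control was -1.12, which did not pass (limma's adjusted p = 0.408), and it uses the same low NMDA arrays. The change with nicotine in NMDA minus that without NMDA was 1.16 and did not pass either (limma's adjusted p = 0.922).

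The subunits of the main brain receptors showed no common direction. Chrna4, which pairs with Chrnb2 in the receptor of highest nicotine affinity, lay at -0.051 (SE 0.50) and Chrnb2 at -0.28 (SE 0.55), with intervals that reached past a 2-fold change. Chrnb2 read 427, 58.1 and 467 with NMDA and 226, 115 and 281 with both, and without NMDA replicate 2 its change was -1.01 (unadjusted p = 0.0499, limma's adjusted p = 0.997). Chrna7, which forms the calcium-permeable homomeric receptor, lay at -0.081 (SE 0.42, interval -1.01 to 0.85). Chrnb4, a partner of Chrna3, lay at -0.18 (SE 0.23) and 0.057 (SE 0.19) at its 2 probe sets. Chrna2 lay at -0.25 (SE 0.65), and at 0.23 without NMDA replicate 2. The muscle-type subunits Chrna1, Chrnb1, Chrnd, Chrne and Chrng lay at 0.0041, -0.14, 0.45, -0.17 and -0.033. Among muscarinic receptors and acetylcholine enzymes 2 of 5 tested lay above 0, and the smallest p was that of the muscarinic receptor Chrm4 at -0.35 (SE 0.21, unadjusted p = 0.124).

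**Figure D3:**
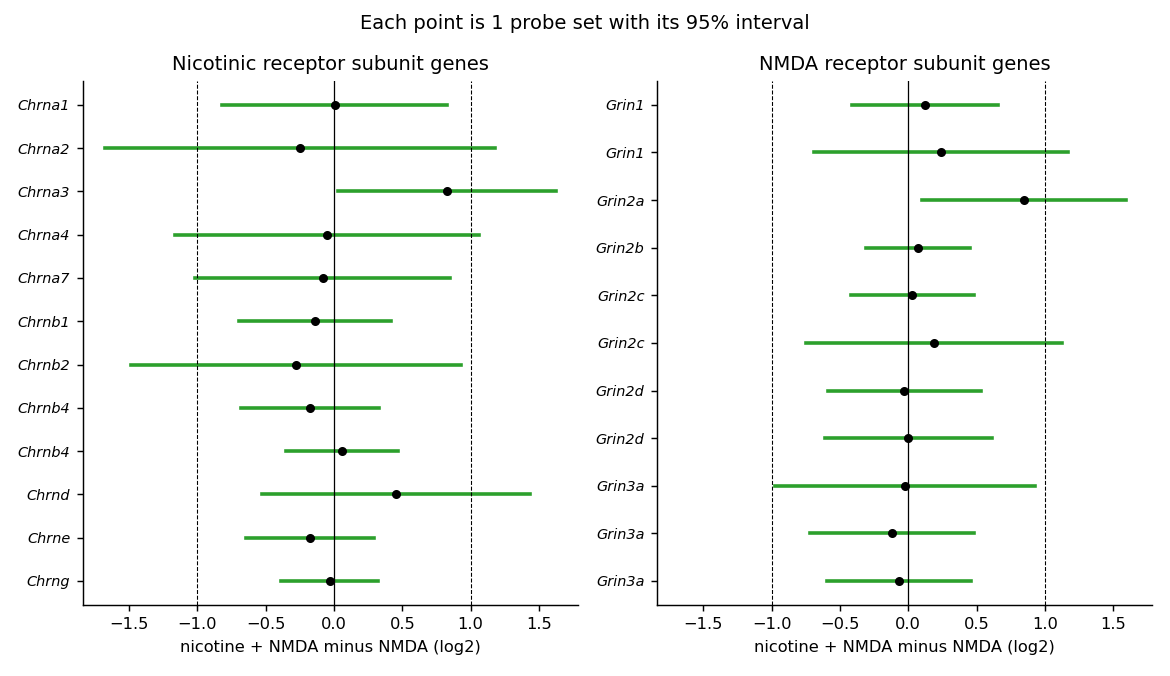
Fitted change with nicotine (log2, dot) and its 95% interval (line) for each tested probe set of nicotinic (left) and NMDA receptor (right) subunit genes, with dashed lines at a 2-fold change. The intervals of Chrna3 and Grin2a alone exclude 0, before adjustment, and those of Chrna2 and Chrna4 reach past 2-fold in both directions.

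All 6 NMDA receptor subunit genes were tested, 5 lay above 0 and 1 below, with a median of 0.051, and 5 had intervals inside a 2-fold change. Grin2a, the regulatory subunit that comes up as cortex matures, read 522, 515 and 674 with NMDA and 1152, 1856 and 552 with nicotine + NMDA. Dates 1 and 2 were higher with nicotine and date 3 lower, so the arrays overlapped, and the change of 0.85 (SE 0.34, unadjusted p = 0.0299) did not pass after adjustment. The control arrays of Grin2a read 892, 1269 and 1279, above all 3 NMDA arrays, and NMDA against control was -0.93, which did not pass (limma's adjusted p = 0.422). Without NMDA replicate 2 the change with nicotine was 0.57. The obligate subunit Grin1 lay at 0.12 (SE 0.24) and 0.24 (SE 0.42) at its 2 tested probe sets. Grin2b, the subunit that predominates in young cortex, had a narrow interval, 0.070 (SE 0.17, -0.31 to 0.45). The change of Grin2c was 0.031 at D13212_s_at, that of Grin2d 0.0014 (SE 0.28) at its brightest probe set U08260_at and -0.028 at D13213_s_at, and that of Grin3a -0.068 at U29873_at, its brightest probe set.

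Of the AMPA and kainate receptor genes, 4 of 9 tested lay above 0, with a median of -0.049. Gria2, the subunit that makes AMPA receptors impermeable to calcium, read 986, 804 and 1546 with NMDA and 1264, 1431 and 2254 with nicotine + NMDA at M36419_s_at. It was higher on 3 of 3 dates with overlapping arrays, by 0.55 (SE 0.22, unadjusted p = 0.0296), whereas its brighter probe set M38061_at, which stood for the gene in that count, lay at 0.063 (SE 0.18). Gria1 was also higher on each date at M36418_s_at, at 0.36 (SE 0.17, unadjusted p = 0.0631). The kainate subunit Grik4 went the other way, reading 593, 339 and 375 with NMDA and 108, 399 and 135 with both, and at -0.98 (SE 0.50) it had the lowest value of the list. Among metabotropic glutamate receptors 3 of 6 lay above 0, with the smallest p at Grm3, a presynaptic and glial receptor, at -0.19 (SE 0.15, unadjusted p = 0.252). GABA and glycine receptor genes had 11 of 14 above 0, beside 458 of 884 probe sets over all, and a median of 0.14, and none reached an unadjusted p under 0.05. The smallest p was that of Gabra3 at 0.38 (SE 0.25) at L08492cds_s_at and 0.44 at X51991_at.

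Among the genes with the smallest p-values, the large changes lay at low signal. By the rule used to name them, the 12 above and the 12 below 0 with the smallest unadjusted p are given, and none of the 24 passed. In 11 of the 24 the arrays of the groups did not overlap, beside 52 of all 884. In 20 all 3 dates had the same direction, beside 112 higher and 108 lower of the 884. Of the 24, 11 were among the 294 dimmest. The counts over the 24 describe probe sets picked on this same comparison and support nothing. In 18 of the 24 the NMDA arrays had moved from control in the direction opposite to that of the change with nicotine; both comparisons use the same NMDA arrays, so that a high or low NMDA array enters both.

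**Figure D4:**
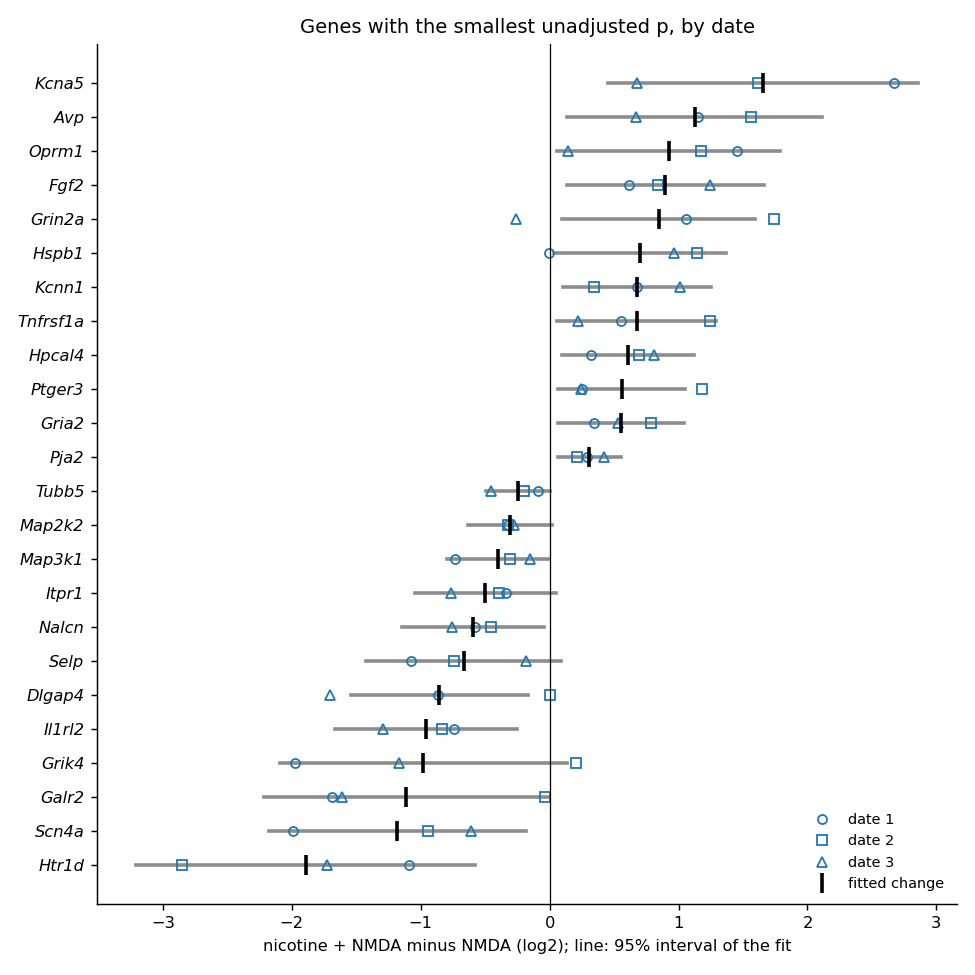
Nicotine + NMDA minus NMDA (log2, horizontal axis) for the 24 probe sets with the smallest unadjusted p in each direction, with an open symbol for each date, a tick for the fitted change and a line for its 95% interval. The dates lie about 2 units apart in Kcna5, Grin2a and Grik4, and no gene passed after adjustment.

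Ion channels supplied several of these genes. Kcna5 encodes the voltage-gated potassium channel Kv1.5. It read 182, 229.8 and 170.2 with NMDA and 1467, 824 and 306 with nicotine + NMDA, all 3 above every NMDA array but spread over a wide range. The change was 1.66 (SE 0.55, interval 0.45 to 2.86, unadjusted p = 0.0117, limma's adjusted p = 0.999), the highest of all 884. Control and nicotine arrays read 158, 119 and 197 and 185, 139 and 483. Kcnn1, a small-conductance potassium channel opened by calcium, read 703, 443 and 477 and 1159, 577 and 1021, higher on each date by 0.68 (SE 0.26) with overlapping arrays. Over the potassium channel list 8 of 20 tested genes lay above 0, with a median of -0.035. Only these 2 members had an unadjusted p under 0.05, beside 28 of 884 probe sets (3.17%) over all.

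Scn4a, a sodium channel best known from skeletal muscle, read 831, 757 and 707 with NMDA and 166, 367 and 442 with nicotine + NMDA, with no overlap and a change of -1.18 (SE 0.45, unadjusted p = 0.0242). Its control arrays, at 166, 179 and 704, lay below all 3 NMDA arrays. Nalcn, the sodium leak channel, did not overlap at AF078779_g_at, reading 647, 802 and 949 and then 414, 570.4 and 539, for -0.60 (SE 0.25); the partner probe set AF078779_at lay at -0.17 (SE 0.26). Sodium and calcium channel genes as a list had 11 of 18 above 0 and a median of 0.055. Cacna1a, the P/Q-type calcium channel, lay over 2-fold higher at its dim probe set AF051527_s_at (1.19, unadjusted p = 0.0944) and at 0.23 (SE 0.16) at its brightest; it was picked for its size after the values were seen.

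Receptors for monoamines, peptides and prostaglandins held other large values at low signal. Htr1d, an inhibitory serotonin receptor found on axon terminals, read 263, 779 and 519.7 with NMDA and 92.9, 58.7 and 117 with nicotine + NMDA. No arrays overlapped, and the change of -1.89 (SE 0.60, interval -3.21 to -0.57) was the lowest of all 884, with the smallest unadjusted p, 0.00917 (limma's adjusted p = 0.999). Its control arrays ranged as widely, at 89.5, 317 and 490.4. Without NMDA replicate 2, where it was highest, the change was -1.35. Htr4, an excitatory serotonin receptor picked for its size after the values were seen, had date 3 going against dates 1 and 2 and lay at 1.25 (SE 0.56, unadjusted p = 0.0474). Over the monoamine receptors 9 of 18 lay above 0 and 9 below. Only Htr1d and Htr4 among them had an unadjusted p under 0.05, beside 28 of 884 probe sets (3.17%) over all. Of the genes for monoamine synthesis and transport 6 of 7 lay above 0, with a median of 0.21, and 2 had intervals inside a 2-fold change; the serotonin transporter Slc6a4 had the smallest p, at 0.50 (SE 0.49, unadjusted p = 0.332), with dates at 1.23, 1.53 and -1.26 and a change of 0.11 without NMDA replicate 2.

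Galr2, a receptor of the neuropeptide galanin, read 835, 178 and 795 with NMDA and 219, 172 and 222 with both. The value on date 2 was low in both groups, so the arrays overlapped, and the change was -1.11 (SE 0.50). Oprm1, the mu opioid receptor, was higher with nicotine at S79903mRNA_at, with 203, 230.3 and 239 against 653, 592 and 269, no overlap and a change of 0.92 (SE 0.39), but lay at 0.22 (SE 0.46) at its other tested probe set. The prostaglandin receptors Ptger3 and Ptgfr were higher on each date, Ptger3 by 0.56 (SE 0.22) at D16443_g_at and Ptgfr by 1.06 (SE 0.47). Avp, the vasopressin precursor, read 307, 120.1 and 106 with NMDA and 752, 466 and 203 with nicotine + NMDA, a change of 1.13 (SE 0.45) with overlapping arrays, and lay at 0.12 (SE 0.21) at M25646_at. Neuropeptide and granin genes had 6 of 8 above 0 and a median of 0.13, with the smallest p at the dynorphin precursor Pdyn, at -0.66 (SE 0.39, unadjusted p = 0.124), and at -0.32 without NMDA replicate 2.

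Signalling genes lay close to 0. Of 19 genes for calcium signalling kinases, phosphatases and buffers 9 lay above 0, with a median of -0.021, and 16 had intervals inside a 2-fold change. Pja2, an E3 ubiquitin ligase known to degrade regulatory subunits of protein kinase A, read 17287, 17969 and 16449 with NMDA and 21154, 20820.3 and 22088 with nicotine + NMDA at D32249_s_at. The arrays did not overlap, and this bright probe set gave one of the tightest differences, 0.31 (SE 0.11, interval 0.067 to 0.55, unadjusted p = 0.0170). The other Pja2 probe sets lay at 0.24 (SE 0.22) and -0.00050 (SE 0.18). Prkar2a, one of those regulatory subunits, was also above all NMDA arrays, with 1382, 1815 and 1443 against 2029, 2004 and 1935, and had the smallest p of the calcium and kinase list, at 0.36 (SE 0.16, unadjusted p = 0.0509). Hpcal4, a neuronal calcium sensor, lay at 0.61 (SE 0.23) at D13125_at, higher on each date, and at 0.037 (SE 0.29) at D14819_g_at. Itpr1, the calcium release channel of the endoplasmic reticulum, read 987, 1128 and 1218 and 767, 847 and 693, without overlap, for -0.50 (SE 0.25, unadjusted p = 0.0689).

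In the MAP kinase, PI3 kinase and JAK-STAT list 7 of 13 lay above 0, with a median of 0.0094. Map3k1, a kinase upstream of JNK, was lower on each date at U48596_g_at, at -0.40 (SE 0.18, unadjusted p = 0.0494), and at -0.23 (SE 0.24) at U48596_at. A probe set annotated to Map2k2, whose sister probe set is annotated to another gene so that its identity is unsure, lay at -0.31 (SE 0.15). The other Map2k2 probe sets, rc_AA957896_s_at and L14936_at, lay at -0.34 (SE 0.18) and -0.070 (SE 0.13). Among neurotrophic and growth factors 7 of 14 lay above 0. Fgf2, a growth factor made by astrocytes and neurons, read 284, 236 and 176 with NMDA and 465, 468 and 495 with nicotine + NMDA, with no overlap and a change of 0.90 (SE 0.35, unadjusted p = 0.0254) at M22427_at. With nicotine alone it read 429, 507 and 468, close to the arrays with both agents, and its second probe set X07285cds_s_at lay at -0.16 (SE 0.38). The summed astrocyte markers were likewise higher with nicotine + NMDA than with NMDA, and their part in this difference was not tested. Receptors of these factors had 5 of 10 above 0, with the smallest p at Ntrk3, the receptor of neurotrophin-3, at 0.95 (SE 0.55, unadjusted p = 0.109), or 1.47 without NMDA replicate 2.

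Cell death and stress genes had medians of -0.033 over 16 tested genes and 0.074 over 12. Of the death genes 7 lay above 0 and 14 had intervals inside a 2-fold change. Tnfrsf1a, the TNF receptor whose cytoplasmic part carries a death domain, read 2301, 1533 and 2962 with NMDA and 3408, 3716 and 3468 with nicotine + NMDA. It did not overlap and differed by 0.67 (SE 0.28, unadjusted p = 0.0348). Of the stress genes 7 lay above 0 and 10 had intervals inside a 2-fold change. Hspb1, a small heat shock protein, read, at M86389cds_s_at, 3459, 403 and 996 and 3444, 959.5 and 2001, nearly the same on date 1 and higher with nicotine on dates 2 and 3, for 0.70 (SE 0.30). Its other tested probe sets lay at 0.37 and 0.18. Mt1, the metal-binding metallothionein, was higher on each date, at 0.31 (SE 0.14, unadjusted p = 0.0474), with date 1 far above the others in every group.

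Inflammation genes had 5 of 9 tested above 0, with the smallest p at the adhesion gene Vcam1, at 0.27 (SE 0.24), or 0.13 without NMDA replicate 2. Il1rl2, a receptor of the interleukin-36 cytokines, read 467, 699.7 and 636 with NMDA and 256, 368 and 225 with nicotine + NMDA, lower without overlap, at -0.96 (SE 0.32, unadjusted p = 0.0127), and its control arrays read 152, 446 and 260.4. Selp, an adhesion molecule of platelets and endothelium, also did not overlap, at -0.67 (SE 0.34). Genes of glucose supply and energy metabolism had 4 of 10 above 0. The smallest p there was that of the neuronal glucose transporter Slc2a3, at 0.29 (SE 0.23) and -0.013 (SE 0.31). Glutamate and GABA metabolism and transport had 5 of 9 above 0, with the GABA-synthesizing enzyme Gad1 at -0.22 (SE 0.16), lower on each date, and at -0.11 without NMDA replicate 2.

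Synaptic vesicle genes had 10 of 18 above 0, with a median of 0.036, and postsynaptic scaffold genes 2 of 4, among them Dlg3 at 0.22 (SE 0.28). Dlgap4, a scaffold protein of the postsynaptic density, read 952, 833 and 639 with NMDA and 497, 835 and 157 with both, equal on date 2 and lower on the other dates, for -0.85 (SE 0.31) at U67140_g_at beside -0.17 (SE 0.19) at U67140_at. Syt11, a vesicle trafficking synaptotagmin, lay over 2-fold higher at 1.07 (SE 0.61), with NMDA replicate 2 at 157 against 2584 and 2731 on the other NMDA arrays. Control replicate 2, the other array with a high GAPDH ratio, also read low, at 393. Without NMDA replicate 2 the change of Syt11 was 0.21, and without both of these arrays it was -0.0020. The gap junction gene Gja1, an astrocyte marker with 6 of 7 members of its list above 0, had the same shape, reading 480.1, 85.6 and 479 with NMDA and 491, 408 and 902 with both, for 0.86 (SE 0.48). Without NMDA replicate 2 the change of Gja1 was 0.46, and without both arrays 0.26. Tubb5, a beta tubulin, was lower on each date at rc_AI229707_s_at, at -0.25 (SE 0.11, unadjusted p = 0.0499), and its 3 other probe sets lay at -0.18, -0.029 and 0.053. Neuron markers had 4 of 13 above 0 and a median of -0.07, with the smallest p at the neurofilament gene Nefm, at -0.21 (SE 0.12), and oligodendrocyte markers had 1 of 5 above 0, the myelin gene Mag at 0.30 (SE 0.20). Slc2a1, a glucose transporter and the one endothelial marker tested, lay at 0.21 (SE 0.21).

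Whether nicotine acted differently in the presence of NMDA is asked by the interaction, the change with nicotine among NMDA cultures minus the change with nicotine among cultures without NMDA. By limma 0 of 884 probe sets passed (0%), with a smallest adjusted p of 0.922, and 34 (3.85%) had an unadjusted p under 0.05. Nicotine against control, which shares no array with the comparison in NMDA, gave 0 past the threshold and 113 (12.8%) at an unadjusted p under 0.05. The controls there include replicate 2, with the GAPDH ratio of 3.36, and a count without that array is not given here. The nicotine changes without and with NMDA correlated at r = 0.185 and rho = 0.227 over the 884 probe sets, which share their dates and the probe sequences and are not independent. For the NMDA-raised genes the interaction was 0.067 for Fos at X03347cds_g_at (interval -0.53 to 0.67), and 0.155 and -0.22 at its other probe sets. It was 0.18 for Junb (-0.46 to 0.82). Egr1 gave -0.16 at M18416_at (-0.56 to 0.24), and 0.21 and -0.50 at the other probe sets that NMDA raised. Nr4a1 gave -0.094 at U17254_g_at (-0.85 to 0.67) and -0.48 at U17254_at (-1.07 to 0.11). Nr4a3 gave 0.30 (-0.35 to 0.94) at X86003_at.

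**Figure D5:**
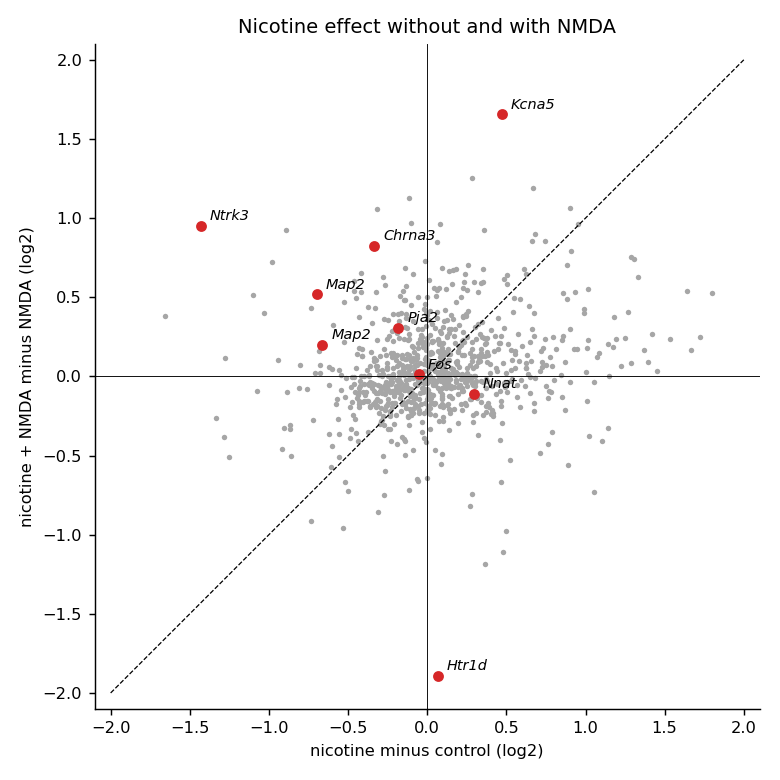
Change with nicotine in cultures with NMDA (vertical axis, log2) against that in cultures without NMDA (horizontal axis, log2) at the 884 tested probe sets, with the line of equal change dashed and named probe sets in red. Fos lies near 0 on both axes, and Kcna5 and Htr1d lie away from 0 mainly on the vertical axis. Ntrk3 and the marked Map2 probe sets, X17682_s_at and X53455cds_s_at, lie to the left of 0 without NMDA and above 0 with it. The brightest Map2 probe set, U30938_at, is not marked and lay at -0.070 with NMDA.

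The smallest interaction p-values were those of Pja2, Map2, Ntrk3 and Nnat. Pja2 at D32249_s_at lay at -0.18 with nicotine without NMDA and at 0.31 with it, an interaction of 0.49 (SE 0.15, unadjusted p = 0.00900). Its other tested probe sets changed by 0.24 and -0.00050 with nicotine in NMDA, and their interactions are not given here. Map2, a microtubule-associated protein of dendrites, gave 1.22 (SE 0.39) at X17682_s_at and 0.86 (SE 0.29) at X53455cds_s_at. Its X17682_s_at signal was 1739.7, 4769.6 and 2454 on the control arrays and 2052, 1648 and 1361 with nicotine, and 2353, 2447 and 1419.8 with NMDA and 2731, 3886 and 2329 with both. Control replicate 2, with the GAPDH ratio of 3.36, was the highest of these 12; without it and NMDA replicate 2 the interaction was 0.96. At the brightest Map2 probe set, U30938_at, the interaction was 0.41 (SE 0.22). Ntrk3 gave 2.38 (SE 0.77, unadjusted p = 0.0107), with signals of 440.2, 1188 and 838 in controls, 549, 132 and 190.4 with nicotine, 138, 593 and 266 with NMDA and 662, 507 and 675 with both, and control replicate 2 again the highest. Without that array and NMDA replicate 2 the interaction of Ntrk3 was 2.54 (unadjusted p = 0.00270). Nnat, a small membrane protein of developing neurons, gave -0.40 (SE 0.15, unadjusted p = 0.0185).

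A separate experiment in the series also set nicotine + NMDA against NMDA, at a later time. There cultures had 10 uM nicotine for 18 h, then NMDA for 30 min, both were washed off, and RNA was harvested 24 h later, with 5 arrays a group in a repeat run of the same samples. In that run, too, 0 of 810 probe sets tested in both experiments passed by limma for nicotine + NMDA against NMDA, with 8 (0.988%) at an unadjusted p under 0.05. The difference between the experiments passed at 0 of 810 and reached an unadjusted p under 0.05 at 1 (0.123%). In this joint fit only the crossed arrays had a block, and both experiments shared their variance estimates. The SE of the 1 h change was then 0.46 for Tnfrsf1a, beside 0.28 in the fit of 12 arrays. For Syt11 it was 0.58 beside 0.61. A count near 0 does not show that the experiments were alike. The experiments share no array. Of the 24 probe sets named above, 22 were tested in both, and 12 had the same direction in the washed-out repeat run, beside 50% of all 810. In its first run, made from the same samples, 14 of 22 did, beside 53% of 802.

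Kcna5 was higher with nicotine in both, by 1.66 at 1 h and by 1.24 (SE 0.46, unadjusted p = 0.0122, limma's adjusted p = 0.999) in the washed-out repeat run and 0.73 in its first run. Il1rl2 was lower in both, at -0.96 and -0.85 (SE 0.53). Htr1d, at -1.89 at 1 h, lay at -0.42 (SE 0.68) there, and Grin2a at -0.30 (SE 0.53). Fos lay at 0.062 (SE 0.32) and Nr4a1 at -0.098 (SE 0.31). The smallest p-values for the difference between the experiments were those of Ptgfr at 1.33 (unadjusted p = 0.0373), the iron carrier Tf at -1.46 and then Itpr1 at -0.74, Ptger3 at 0.95 and Syt11 at 1.31. These differences use the repeat run. The washed-out change in the repeat and the first run was -0.28 and -0.21 for Ptgfr and 1.08 and 0.098 for Tf. It was 0.24 and -0.19 for Itpr1, -0.39 and 0.076 for Ptger3 and -0.24 and -0.0020 for Syt11. Over 802 probe sets the changes in these runs correlated at r = 0.196.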

How the data were processed

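RNA of primary rat cortical neurons was measured on a 1-colour Affymetrix array. The deposited values, read as linear intensity, had been scaled by the authors to a common trimmed mean per run (software: not given in the sources used here). Gene names come from the platform's annotation: of 1263 probe sets kept after 59 controls were left out, 1137 had 1 gene, 8 several and 118 none. Values were turned into log2 after adding 57.1, the run's 10th percentile, and those with a mean under the 30th percentile over the 12 arrays were not tested. Scanner files and detection calls were not used here, so a dim signal carries no bound.

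The 4 groups of the crossed experiment, 12 arrays in all, were modelled in limma 3.58.1 (R 4.3.3) with an intensity trend, moderated variances and the date as a block (6 residual degrees of freedom). P-values are 2-sided and adjusted by Benjamini-Hochberg over all tested probe sets, with a threshold of 0.05. The dates pair the arrays, because the labels give the same date to the paired arrays; the deviations of same-dated NMDA and nicotine + NMDA arrays from their group means correlated at 0.15, 0.34 and 0.40. The washed-out experiment was fitted together with the crossed one, as a difference between differences, with a block for the crossed arrays only. The fit of the 12 arrays, but not the joint fit, was tested on simulated data. There all arrays had the same quality, unlike the arrays used here.

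Named were the 12 probe sets with 1 gene above and the 12 below 0 with the smallest unadjusted p, all members of the early gene, nicotinic and NMDA receptor lists, and the member with the smallest p of each other list. In 28 lists a gene stood for its brightest probe set. The comparison, the lists and this rule were chosen with earlier results of these data known. Precision is limited by the number of arrays. Alternatives changed the block, the groups fitted, the normalization, the offset, the filter, the variance trend, array weights, a GAPDH covariate and the arrays left out.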

Additional observations from a re-analysis of the deposited data

How the results depend on the processing

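The counts of probe sets past the threshold, 0 for nicotine + NMDA against NMDA, for the interaction and for the difference from the washed-out experiment, were 0 under every alternative run. For nicotine + NMDA against NMDA the smallest adjusted p over 21 alternatives ran from 0.261, without nicotine + NMDA replicate 3, to 1.00. With no replicate block, so that dates were not paired, 14 probe sets had an unadjusted p under 0.05 in place of 28, and 62.4% had an interval inside a 2-fold change in place of 70.2%. In that fit 8 probe sets passed for NMDA against control and 9 for nicotine + NMDA against nicotine, in place of 11 each, and these were among the 11. Leaving out single arrays gave 11 to 13 and 10 to 11. Array weights gave 58 at an unadjusted p under 0.05 and the smallest adjusted p was then 0.663. The share of intervals inside a 2-fold change ran from 50.1%, without replicate 3 of every group, to 83.2%, with the filter at the median. Median centring moved the median change from 0.0078 to -0.051 and gave 11 higher and 10 lower at an unadjusted p under 0.05, in place of 19 and 9. Leaving out control replicate 2 and NMDA replicate 2 together, chosen after the GAPDH ratios had been seen, gave 29. Of 1553 values of the 75 named probe sets under the alternatives, 40 moved by more than 1 SD of the date differences, 106 had another sign and 0 passed. That SD was taken with all arrays in, so an array that widens it also makes a move harder to count. For Syt11 and Crem it was 1.62 and 1.42, and their changes without NMDA replicate 2 were not among the 40. The count of 40 is therefore no measure of stability. With 3 arrays a group, a 2-fold change lay within the interval at most of the 294 dimmest probe sets, so that small changes of dim receptor genes were not detectable here.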
